A study of Mus musculus with 8 samples.

Results

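*Npas4* and the genes of its dimer partners were followed in cultured hippocampal neurons after melanin-concentrating hormone (MCH). The genes were chosen by name, as the activity-regulated factor *Npas4*, the partner genes *Arnt* and *Arnt2*, and the related factor *Npas3*. They are 4 of the 45706 genes of the deposited table, and all 4 were among the 14962 genes with enough reads to be tested. Neurons of wild-type C57/Bl6 mice were taken at embryonic day 18, grown in vitro and exposed for 4 h to 1 µM MCH peptide or to H2O as the vehicle. Each treatment has 4 wells, numbered as replicates 1 to 4, and a poly-A library was made from each well. The wells carry no transgene or deletion by their labels, and the cultures are embryonic neurons with some glia rather than adult hippocampus.

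NPAS4 is a neuronal transcription factor of the bHLH-PAS family, a group of proteins that bind DNA as pairs through a basic helix–loop–helix domain and PAS domains. Its gene is an immediate early gene that depolarization and calcium entry switch on within minutes, and its protein needs ARNT or ARNT2 as a partner to bind its sites in enhancers and promoters. In excitatory neurons NPAS4 is known for raising *Bdnf* and inhibitory input to the cell body. ARNT and ARNT2 also serve the hypoxia-inducible factors, and ARNT the aryl hydrocarbon receptor, so their supply is shared. NPAS3 is a developmental brain factor that also pairs with ARNT proteins.

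Levels are given as CPM, reads scaled to a common library size with edgeR's TMM factors, when 1 gene is followed across wells, and as TPM, which also accounts for transcript length, when genes are compared with each other. A gene is called differentially expressed (DE) when edgeR's quasi-likelihood test gives it a *P* value under 0.05 after Benjamini–Hochberg adjustment over all 14962 genes. By that rule 35 genes were DE (0.234%), 31 of them lower with MCH (0.207%) and 4 higher (0.0267%), and 1272 genes had an unadjusted *P* value under 0.05. Other fits, with a block for the replicate number (replicate block) or for the side of the wells defined next (batch block), are cited where a call changes. They made 596 (3.98%) and 668 (4.46%) genes DE. Libraries held 26083936 to 31844861 estimated counts. After the treatment means were taken out, 59.8% of the variance between wells lay along 1 axis, with replicates 1 and 2 on one side and replicates 3 and 4 on the other, whatever the treatment. By the study's methods the wells came from 2 separate cultures, each with 2 vehicle-treated and 2 MCH-treated wells. The 4 wells of a treatment are thus not 4 independent cultures. Which culture a replicate belongs to is not given in the sources used here. *P* values and intervals therefore measure the spread between these wells, part of which may be technical. Summed over 7 astrocyte markers, replicates 1 and 2 had 344.5 to 466.2 CPM and replicates 3 and 4 had 1512 to 1719 CPM, in both treatments. The sum of the 7 neuronal markers went the other way, with 7695 to 8004 CPM in replicates 1 and 2 and 7120 to 7250 CPM in replicates 3 and 4. Not every one of these markers separated the sides. *Syt1* did, whereas *Rbfox3*, *Map2*, *Tubb3* and *Snap25* overlapped. Microglial markers, such as *Cx3cr1*, summed to at most 9.51 CPM.

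The promoters are shown first, because *Npas4* is an activity-regulated gene and the other 3 are not classed as such. CREB, a factor of the activity response, binds the cyclic AMP response element TGACGTCA or the shorter TGACG. RefSeq windows on GRCm38.p6, with the 250 bases before the start site, were matched for all 4 genes and searched on both strands. The full element occurs in 1.546% of the 32851 windows and TGACG in 17.765%. *Npas4* (start at 4989971 on the minus strand of chromosome 19) has 2 copies of TGACG on opposite strands, pointing away from each other, and no full element, and a TATAA, which 22.785% of windows hold. Capitals mark TGACG or its reverse complement in the first stretch and TATAA in the second, both read on the minus strand.
*Npas4*, chr19:4990129-4990158: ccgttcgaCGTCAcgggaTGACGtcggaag
*Npas4*, chr19:4989981-4990010: ctgtcaggagctaTATAAggcggatcgagg
*Arnt*, chr3:95434140-95434169 (capitals mark the full element, plus strand): ttgcatttcacTGACGTCAatttggttatg

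The first *Npas4* stretch lies 187 to 158 bases before the RefSeq start and the second 39 to 10 bases before it. In GENCODE vM21 the transcript *Npas4-201* starts further upstream, at 4990316, so both stretches lie inside that transcript. *Arnt* (start at 95434390, plus strand of chromosome 3) holds the full element 239 bases before its start and another TGACG outside it. The *Arnt2* window (start at 84410038, minus strand of chromosome 7) held none of the motifs searched. The *Npas3* window (start at 53248432, plus strand of chromosome 12) held neither TGACG nor TATAA. These are matches of letters, and binding was not measured.

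*Npas4* fell with MCH by 47.8%, whereas no change was called for *Arnt*, *Arnt2* or *Npas3*. The log2 fold change was below 0 in 3 of the 4 genes, as in 51% of all genes tested. *Npas4* (ENSMUSG00000045903, GRCm38 chromosome 19, 4984355 to 4990316, minus strand) had 38.1, 39.9, 34.7 and 39.2 CPM in vehicle replicates 1 to 4. With MCH it had 22.4, 15.7, 22.0 and 19.0 CPM. All 4 MCH-treated wells lay below all 4 vehicle-treated wells, as did those of 2.96% of all genes tested. The highest MCH-treated well, at 22.4 CPM, was well under the lowest vehicle-treated well, at 34.7 CPM. The means were 38.0 ± 2.33 CPM with vehicle and 19.8 ± 3.12 CPM with MCH (SD, n = 4 wells), from 984 to 1102 and from 419 to 702 reads per well. Their log2 fold change was −0.94 with a 95% interval of −1.18 to −0.70 and a standard error of 0.11. The adjusted *P* value was 0.0135 (edgeR, Benjamini–Hochberg). By *P* value *Npas4* ranked 9 among the genes tested. In bulk RNA, a loss of expressing cells and less *Npas4* RNA per cell cannot be told apart.

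The fall was present on both sides of the wells. On the log2 scale MCH differed from vehicle by −1.05 within replicates 1 and 2 and by −0.85 within replicates 3 and 4. Wells with the same replicate number differed by −0.76, −1.34, −0.65 and −1.04, so MCH replicate 2 stood lowest and replicate 3 showed the smallest gap. The sum of the 7 neuronal markers overlapped between treatments, at 7120 to 7860 CPM with vehicle and 7132 to 8004 CPM with MCH. The sum of the 6 inhibitory neuron markers overlapped as well, at 2157 to 2857 and 2115 to 2661 CPM. All 6 of these genes had log2 fold changes below 0, as had 51% of all genes tested, with a median of −0.11. For 1 of the 6 all MCH-treated wells lay below all vehicle-treated wells, as for 2.96% of all genes tested. None was DE by edgeR (1 at an unadjusted *P* value under 0.05 and 0 by DESeq2 or limma voom). With either block 2 of the 6 were lower and DE. The replicate and batch blocks called 3.98% and 4.46% of all genes in either direction. The part of these markers in the change of *Npas4* was not tested. The call for *Npas4* was lost in 4 of the 8 fits that left out 1 well. With Benjamini–Hochberg adjustment in edgeR, *P* was 0.0745 without vehicle replicate 1, 0.0668 without vehicle replicate 2, 0.0762 without vehicle replicate 4 and 0.0724 without MCH replicate 4, while the log2 fold change stayed between −1.002 and −0.84 with any 1 well left out.

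**Figure D1:**
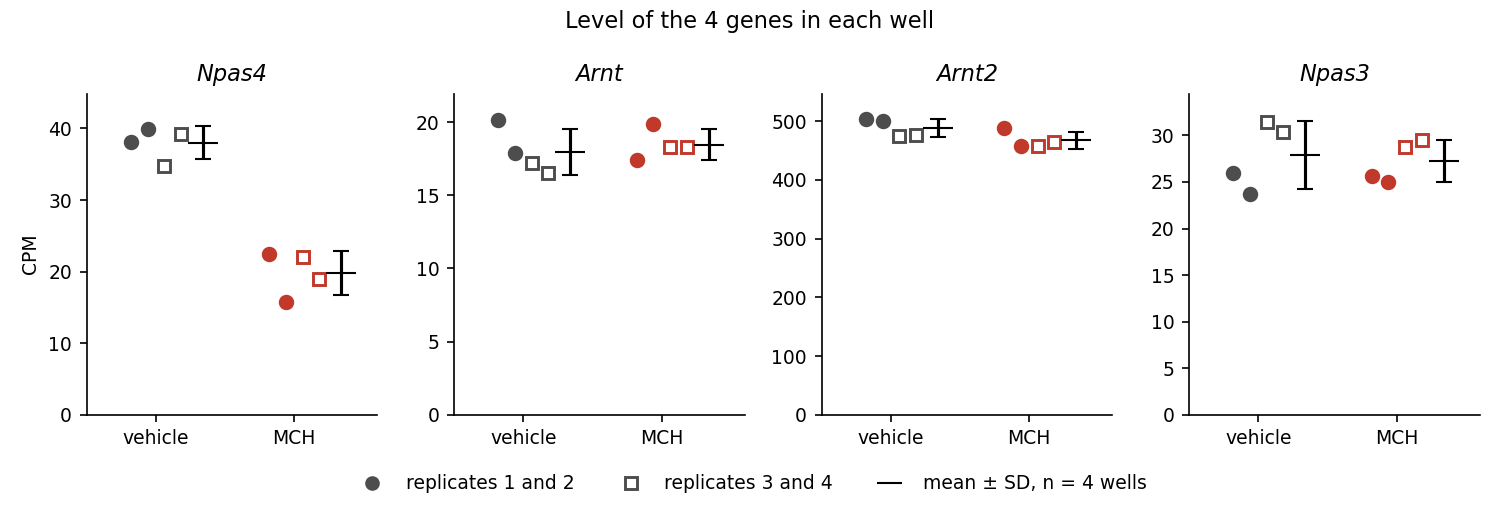
CPM of *Npas4*, *Arnt*, *Arnt2* and *Npas3* in each well, by treatment, with filled circles for replicates 1 and 2, open squares for replicates 3 and 4, and the mean ± SD of 4 wells as bars. The MCH-treated wells of *Npas4* (15.7 to 22.4 CPM) lie below its vehicle-treated wells (34.7 to 39.9 CPM), the treatments overlap for the other 3 genes, and for *Npas3* replicates 3 and 4 lie above replicates 1 and 2.

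*Arnt2* encodes the partner that prevails in neurons. *Arnt2* (ENSMUSG00000015709, chromosome 7, 84246278 to 84410176, minus strand) had 503, 501, 475 and 476 CPM in vehicle replicates 1 to 4 and 488, 457, 458 and 464 CPM in MCH replicates 1 to 4. MCH replicate 1 lay among the vehicle-treated wells and the other 3 below them. Within pairs of the same replicate number MCH was lower in 4 of 4, by −0.04, −0.13, −0.05 and −0.04 on the log2 scale. The means were 489 ± 15.1 and 467 ± 14.4 CPM (SD, n = 4 wells), which gave a log2 fold change of −0.07 with a 95% interval of −0.15 to 0.02 and a standard error of 0.04. The adjusted *P* value was 0.706 (edgeR, Benjamini–Hochberg), or 0.193 with the replicate block and 0.158 with the batch block, with unadjusted edgeR values of 0.111, 0.0239 and 0.0181. With 12187 to 15283 reads per well, *Arnt2* has the narrowest interval of the 4 genes, and it leaves room for a fall of at most 0.15 on the log2 scale.

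*Arnt* encodes the partner that most tissues use. *Arnt* (ENSMUSG00000015522, chromosome 3, 95434388 to 95497240, plus strand) had 20.1, 17.9, 17.2 and 16.5 CPM with vehicle and 17.4, 19.9, 18.3 and 18.3 CPM with MCH in replicates 1 to 4. The treatments overlapped over nearly their whole range, and the highest value was that of vehicle replicate 1. The means of 17.95 ± 1.56 and 18.5 ± 1.05 CPM (SD, n = 4 wells) gave a log2 fold change of 0.04 with a 95% interval of −0.12 to 0.21 and a standard error of 0.07. The adjusted *P* value was 0.981 (edgeR, Benjamini–Hochberg). The gene rests on 445 to 544 reads per well. The processed pseudogene *Gm42672* inside it had at most 3 reads in any well.

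*Npas3* differed between the sides of the wells and not detectably between treatments. *Npas3* (ENSMUSG00000021010, chromosome 12, 53248677 to 54072175, plus strand) had 25.98, 23.7, 31.4 and 30.4 CPM with vehicle and 25.7, 25.0, 28.8 and 29.5 CPM with MCH in replicates 1 to 4. Replicates 3 and 4 of both treatments lay above replicates 1 and 2 of both. The sides did not overlap, as was the case for 29.6% of all genes tested (16.6% with replicates 3 and 4 above), at 25.1 ± 1.02 CPM in replicates 1 and 2 and 30.03 ± 1.15 CPM in replicates 3 and 4 (SD, n = 4 wells). Replicates 3 and 4 are also those with the higher sums of astrocyte markers given above and of oligodendrocyte lineage markers (126.0 to 147.5 against 57.3 to 67.9 CPM), whose part in the level of *Npas3* was not tested. Between treatments the log2 fold change was −0.03 with a 95% interval of −0.25 to 0.19 and a standard error of 0.10. The adjusted *P* value was 0.998 (edgeR, Benjamini–Hochberg). Its sign turned without vehicle replicate 3 (0.04), vehicle replicate 4 (0.01) or MCH replicate 2 (0.01).

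Compared per transcript length, *Arnt2* was far above the other 3 genes in every well. *Arnt2* had 144 ± 3.43 TPM with vehicle and 139 ± 4.34 TPM with MCH (SD, n = 4 wells), a level above that of 91.6% of the 14880 tested genes with a TPM. *Npas4* had 21.2 ± 1.14 TPM with vehicle and 11.2 ± 1.77 TPM with MCH. *Arnt* had 8.45 ± 0.828 and 9.03 ± 0.648 TPM, and *Npas3* 8.36 ± 1.17 and 8.29 ± 0.698 TPM. The order with vehicle was *Arnt2*, *Npas4*, *Arnt* and *Npas3*, and the last 2 overlapped. With MCH, *Npas4* at 8.87 to 12.7 TPM also overlapped *Arnt* at 8.25 to 9.71 TPM.

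Among the 19 genes of the bHLH-PAS family listed here, *Arnt2* had the highest mean TPM, and its lowest well, at 136 TPM, lay above the highest well of the next gene, *Hif1a*, at 43.2 TPM. *Hif1a* encodes the oxygen-regulated subunit that pairs with ARNT proteins, and it was followed by the coactivator genes *Ncoa2* and *Ncoa1*, at 33.1 ± 4.35 and 30.1 ± 1.84 TPM (SD over 8 wells). *Npas4* stood at place 5 of 19 with vehicle and at place 9 with MCH, and *Arnt* and *Npas3* at places 12 and 13 in both. From *Clock*, a subunit of the circadian pair, at 18.7 ± 1.29 TPM down to *Ahr*, the dioxin receptor, at 5.92 ± 0.828 TPM, each gene overlapped the next one in this order. *Sim1* and *Sim2*, which direct hypothalamic and midline development, had at most 5 reads in a well and were not tested.

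**Figure D2:**
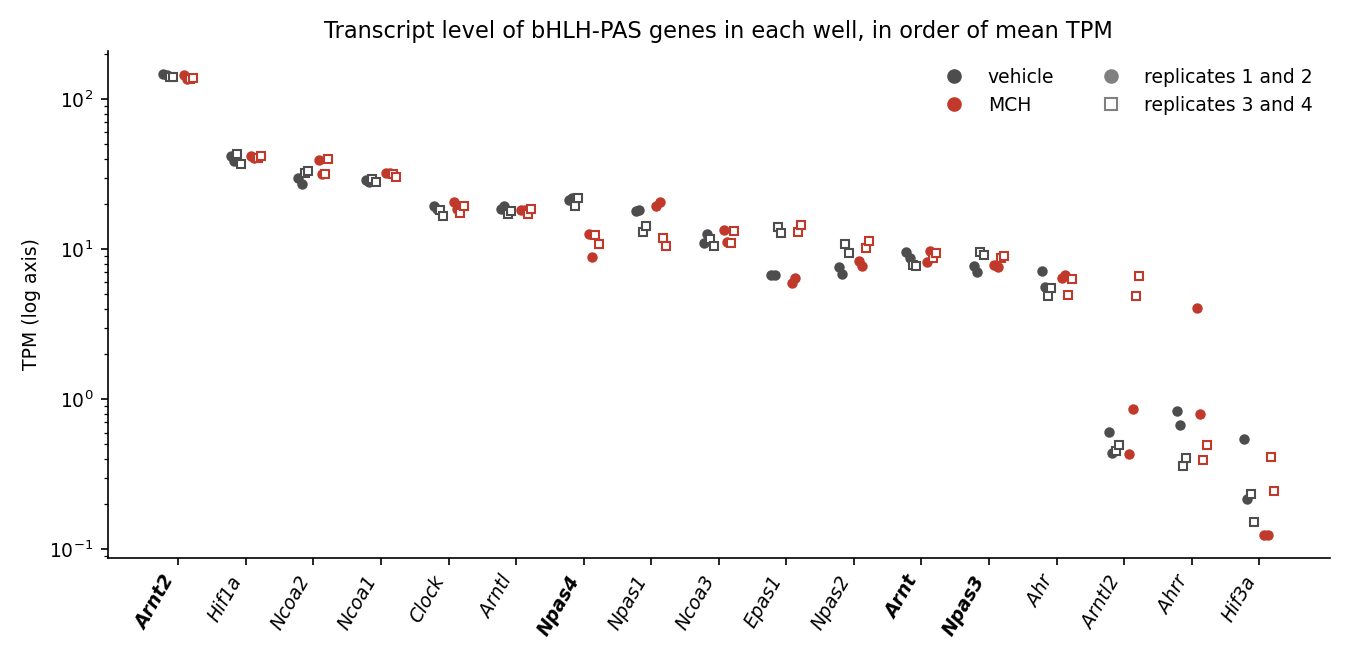
TPM on a log axis of the 17 bHLH-PAS genes tested, in order of the mean over 8 wells, with vehicle in grey, MCH in red, filled circles for replicates 1 and 2 and open squares for replicates 3 and 4. *Arnt2* stands apart at 136 to 147 TPM, and *Npas4* drops from 19.5 to 22.0 TPM with vehicle to 8.87 to 12.7 TPM with MCH.

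The ratio of *Npas4* to its partners was lower in every MCH-treated well than in any vehicle-treated well, a comparison that sets the change of *Npas4* against theirs. Both *Npas4* ratios rest on the same *Npas4* reads as the fall given above, and no change was called for *Arnt2* or *Arnt*. Their separation follows from that fall and is no separate result. The TPM ratio of *Npas4* to *Arnt2* was 0.144, 0.151, 0.138 and 0.156 in vehicle replicates 1 to 4 and 0.0871, 0.0652, 0.0912 and 0.0776 in MCH replicates 1 to 4. No MCH-treated well reached the lowest vehicle-treated one. The means were 0.147 ± 0.00785 and 0.0803 ± 0.0115 (SD, n = 4 wells), a difference of −0.89 on the log2 scale (*P* = 0.0286, two-sided exact permutation test over 70 assignments, the smallest value it can give). These assignments, used for each ratio and for the transcript share, shuffle treatment over all wells without regard to their sides. Wells from a shared culture are thereby treated as independent. As the inverse ratio, there were 6.80 ± 0.363 *Arnt2* transcripts per *Npas4* transcript with vehicle and 12.7 ± 1.96 with MCH. These are ratios of RNA in whole wells. Neither the proteins nor the cells that held each transcript were measured.

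The ratio of *Npas4* to *Arnt* was 2.23, 2.52, 2.48 and 2.84 in vehicle replicates 1 to 4 and 1.54, 0.914, 1.42 and 1.15 with MCH. *Npas4* was above *Arnt* in all 4 vehicle-treated wells and in 3 of the 4 MCH-treated wells, MCH replicate 2 being the exception. The means of 2.52 ± 0.250 and 1.26 ± 0.280 (SD, n = 4 wells) differed by −1.03 on the log2 scale (*P* = 0.0286, two-sided exact permutation test). The ratio of *Arnt2* to *Arnt* overlapped between treatments, at 17.1 ± 1.23 with vehicle and 15.5 ± 1.56 with MCH, a difference of −0.14 on the log2 scale (*P* = 0.171, two-sided exact permutation test, n = 4 wells). Over these 3 ratios and the transcript share below, the Benjamini–Hochberg adjusted values of the exact permutation tests were 0.0571 for both *Npas4* ratios, 0.229 for *Arnt2* to *Arnt* and 0.514 for the share, so none was under 0.05. Beside the *P* values of the other tests, 0.0571 is the smallest adjusted value that the *Npas4* ratios could reach. When the sign was permuted within the 4 pairs of equal replicate number, both *Npas4* ratios had *P* = 0.125, the smallest value that exact test can give, and all 4 pairs fell.

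**Figure D3:**
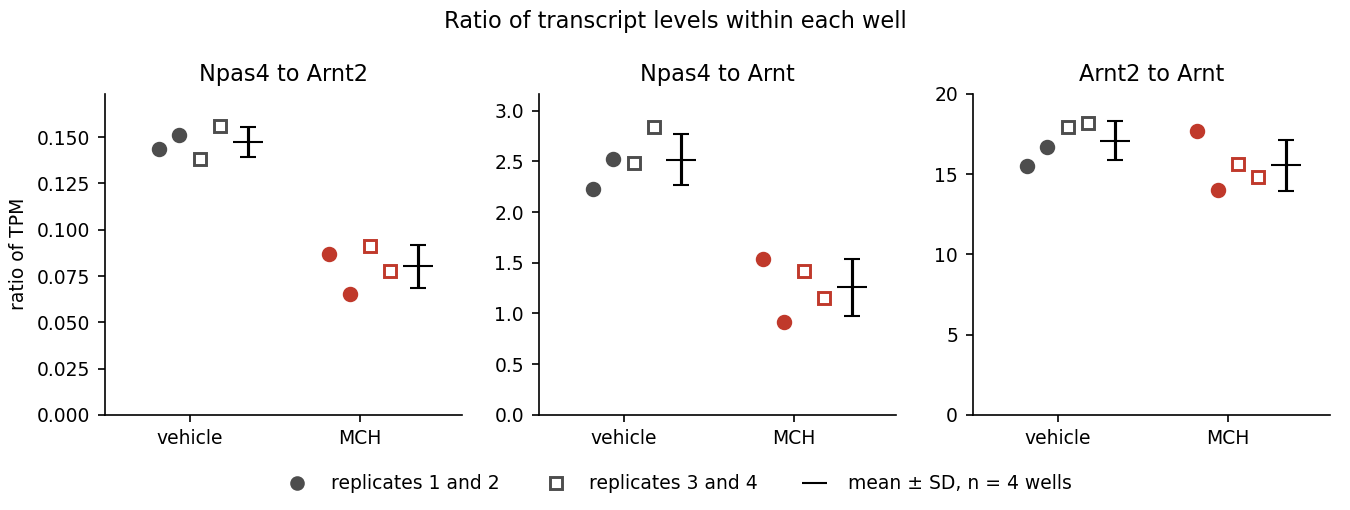
Ratio of TPM within each well for *Npas4* to *Arnt2*, *Npas4* to *Arnt* and *Arnt2* to *Arnt*, by treatment, with filled circles for replicates 1 and 2, open squares for replicates 3 and 4 and the mean ± SD of 4 wells as bars. Both ratios of *Npas4* separate the treatments (0.0652 to 0.0912 against 0.138 to 0.156, and 0.914 to 1.54 against 2.23 to 2.84), and the ratio of *Arnt2* to *Arnt* does not.

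The transcript tables hold 11 transcripts of *Arnt* and 1 each of *Npas4*, *Arnt2* and *Npas3*. The main transcript of *Arnt*, the protein-coding *Arnt-202* (ENSMUST00000090804, 95434390 to 95497240), made up 71.1, 71.0, 78.2 and 59.8% of the *Arnt* TPM in vehicle replicates 1 to 4 and 68.7, 69.1, 71.1 and 60.6% with MCH. Replicate 4 was lowest in both treatments, and the treatments overlapped. The shares of 70.02 ± 7.62% and 67.4 ± 4.63% (SD, n = 4 wells) differed by −2.63 percentage points (*P* = 0.514, two-sided exact permutation test), and without vehicle replicate 3 the difference turned to 0.111 points. The protein-coding *Arnt-203* and *Arnt-205* and the retained intron *Arnt-211* were the others with a mean of at least 10 reads. *Arnt-203* had 17.0 to 83.2 reads with vehicle and 73.5 to 92.8 with MCH, *Arnt-205* 0 to 69.3 and 0 to 18.1, and *Arnt-211* 0 to 12.5 and 0 to 54.5. Salmon divides reads that these overlapping transcripts share, so single low values of them are uncertain. In edgeR's test on 33527 transcripts 0 were DE (0%), with 1476 at an unadjusted *P* value under 0.05. *Npas4-201*, which holds the same reads as the gene, had a log2 fold change of −0.94 in that fit, with a standard error of 0.12. Its adjusted *P* value was 0.156 (edgeR, Benjamini–Hochberg), or 0.784 with the replicate block. The unadjusted edgeR *P* value was 5.6e-05 for this transcript and 8.2e-06 for the gene.

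Of 7 genes known as NPAS4 targets, 0 were DE by edgeR without a block, against 0.234% of all genes, and 1 was DE by DESeq2, against 1.25% of all genes in that test, and 0 by limma voom. Their log2 fold changes were below 0 in 5 of 7, with a median of −0.12 beside −0.0027 over all genes, and 3 of the 7 (*Bdnf*, *Nptx2* and *Mdm2*) had all MCH-treated wells below all vehicle-treated wells, as had 2.96% of all genes. These 3 also had unadjusted *P* values under 0.05. For *Mdm2* this held for reads and not per length, as given with its values. *Bdnf*, the neurotrophin that NPAS4 raises, had 361, 390, 292 and 301 CPM in vehicle replicates 1 to 4 and 287, 287, 226 and 233 CPM with MCH. Each side of the wells showed the drop, and the lower values of replicates 3 and 4 in both treatments brought the highest MCH-treated and the lowest vehicle-treated well close to each other. It differed by −0.38 on the log2 scale, with a standard error of 0.12. The adjusted *P* value was 0.410 (edgeR, Benjamini–Hochberg), or 4.68e-07 with the replicate block and 1.35e-07 with the batch block.

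*Nptx2*, which encodes a secreted pentraxin that gathers AMPA receptors on interneurons, had 97.9, 105, 92.2 and 92.8 CPM with vehicle and 79.5, 85.7, 75.5 and 74.0 CPM with MCH. The treatments did not overlap on either side. It differed by −0.30 on the log2 scale, with a standard error of 0.06. The adjusted *P* value was 0.118 (edgeR, Benjamini–Hochberg), or 0.00261 by DESeq2, 2.78e-05 with the replicate block and 2.28e-05 with the batch block. *Mdm2*, the ubiquitin ligase of p53, had 46.9 to 49.1 CPM with vehicle and 41.1 to 45.9 CPM with MCH, a log2 fold change of −0.12 with a standard error of 0.05 and an adjusted *P* value of 0.517 (edgeR, Benjamini–Hochberg). With transcript length taken into account the log2 fold change of *Mdm2* was −0.0093, and its TPM was 44.6 ± 1.62 with vehicle and 44.9 ± 3.29 with MCH (SD, n = 4 wells). *Brinp1*, a neuronal gene named for its response to BMP and retinoic acid, had 199 to 255 and 186 to 231 CPM, which overlap, a log2 fold change of −0.12 and an adjusted *P* value of 0.836 by edgeR, or 0.0365 with the replicate block and 0.0205 with the batch block. Its log2 fold change was −0.05 without vehicle replicate 2 and −0.07 without MCH replicate 3 or 4. The synaptotagmin gene *Syt10* (−0.19), *Iqsec3*, which encodes a protein of inhibitory synapses (0.00), and the activity-induced kinase gene *Plk2* (0.03) had overlapping wells and adjusted *P* values from 0.923 to 1.00 by edgeR with Benjamini–Hochberg adjustment. The sign for *Iqsec3* turned with several alternatives. With either block 3 of the 7 targets were lower and DE (*Bdnf*, *Nptx2* and *Brinp1*), against 3.98% of all genes in either direction with the replicate block and 4.46% with the batch block.

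**Figure D4:**
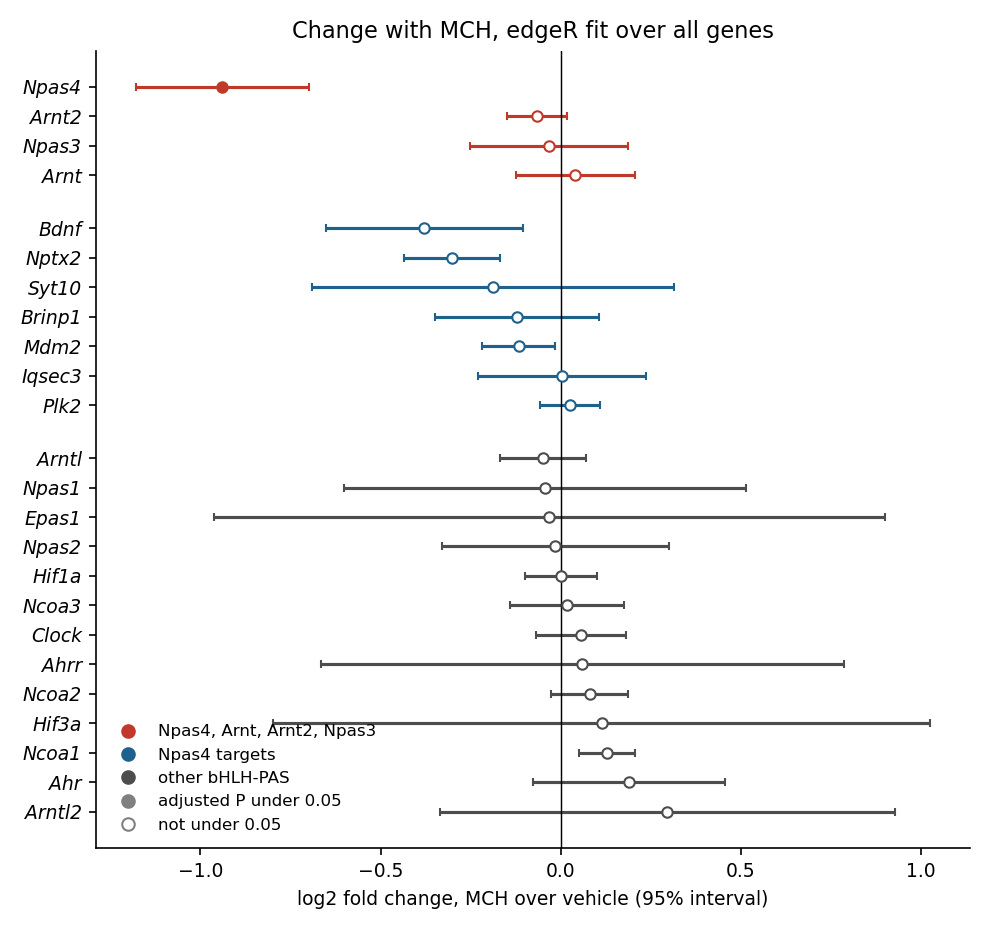
Log2 fold change of MCH over vehicle with its 95% interval from the edgeR fit on all 8 wells, for *Npas4*, *Arnt*, *Arnt2* and *Npas3* (red), 7 NPAS4 targets (blue) and 13 other bHLH-PAS genes (grey), with filled points for an adjusted *P* value under 0.05. *Npas4*, at −0.94, is the only filled point, and the intervals of *Bdnf*, *Nptx2*, *Mdm2* and *Ncoa1* also leave out 0.

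The NPAS4 pair reads TCGTG, here also as its reverse complement CACGA, a core that 13.339% of promoter windows hold. It was searched because NPAS4 acts through it, and was found in windows of *Bdnf* (2 of its 7 start sites), *Plk2* and *Iqsec3* and not in those of *Mdm2*, *Syt10* and *Brinp1*. The share is per window. *Bdnf* had 7 windows and each of these other genes 1, so *Bdnf* had more room for a match. The stretches below, in capitals at the core, show it for *Bdnf*, the target gene with the lowest fold change, and for *Plk2*, the one with the highest.
*Bdnf*, chr2:109674511-109674540, plus strand: tttgatcatcactCACGAccacgtccgctg
*Bdnf*, chr2:109692335-109692364, plus strand: tgattctggtaatTCGTGcactagagtgtc
*Plk2*, chr13:110394975-110395004, plus strand: ctcgccgtgacgtCACGAggccccgcccca

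In the *Plk2* stretch the core directly follows, and shares letters with, the full element TGACGTCA that its window also holds. No window of *Npas4*, *Arnt*, *Arnt2* or *Npas3* held TCGTG. *Npas4* and *Arnt* each held 1 GCGTG (28.157% of windows), and *Npas3* held 1 ACGTG (16.572% of windows). These are cores read by pairs of ARNT proteins with the aryl hydrocarbon receptor or the hypoxia-inducible factors.

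The other bHLH-PAS genes listed, and the targets of the hypoxia-inducible factors and the aryl hydrocarbon receptor, showed no DE gene by edgeR. Of the 15 other bHLH-PAS genes 13 were tested, 4 with a log2 fold change below 0 and 9 above it, with a median of 0.06. They ran from −0.05 for *Arntl*, the clock factor BMAL1, to 0.30 for its relative *Arntl2*, which had 16 to 36 reads per well. For *Arntl2* the value with transcript length taken into account was 2.49, with an adjusted *P* value of 0.575 (edgeR, Benjamini–Hochberg), and its TPM was 0.497 ± 0.0787 with vehicle and 3.20 ± 3.03 with MCH (SD, n = 4 wells). DESeq2 and limma voom also called 0 of them, 1 had an unadjusted *P* value under 0.05, and that gene, the coactivator *Ncoa1*, named here after its values were seen, was called with both blocks. *Ncoa1* had 117 to 122 CPM with vehicle and 125 to 134 CPM with MCH, which do not overlap (3.07% of all genes tested lay above in this way and 6.03% did not overlap in either direction), a log2 fold change of 0.13 and an adjusted *P* value of 0.284 by edgeR, or 0.0288 with the replicate block and 0.0205 with the batch block.

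Of 17 hypoxia-inducible factor targets 16 were tested, 11 with a log2 fold change below 0 and 5 above it, with a median of −0.05 and 0 DE by edgeR (2 at an unadjusted *P* value under 0.05, 1 by DESeq2, where 1.25% of all genes were called, and 0 by limma voom). They ran from −0.35 for the peptide hormone gene *Adm*, with 5 to 30 reads per well, to 0.17 for the histone demethylase gene *Kdm3a*. *Kdm3a* had 47.4 to 49.1 CPM with vehicle and 53.2 to 56.2 CPM with MCH, an adjusted *P* value of 0.151 by edgeR and 0.0348 by DESeq2, and 0.0231 and 0.0118 with the replicate and the batch block. Of 6 aryl hydrocarbon receptor targets 5 were tested, 2 below 0 and 3 above it, with a median of 0.06 and 0 DE by edgeR, DESeq2 or limma voom (1 at an unadjusted *P* value under 0.05). They ran from −0.19 for *Tiparp*, a poly-ADP-ribose polymerase gene, to 0.34 for the cytochrome gene *Cyp1a1*, with 8 to 22 reads per well. *Tiparp* had 29.2 to 31.7 CPM with vehicle and 25.9 to 28.7 CPM with MCH, an adjusted *P* value of 0.266 by edgeR and 0.0344 with the batch block. With transcript length taken into account its log2 fold change was −0.39.

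Genes of a pair of complexes known to work with ARNT2 or NPAS4 were read as well. All 6 genes of the NCoR corepressor were tested, 2 below 0 and 4 above it, with a median log2 fold change of 0.06, from −0.08 for the deacetylase *Hdac3* to 0.17 for the subunit gene *Gps2*. All 18 genes of the NuA4 acetyltransferase complex were tested, 10 below 0 and 8 above it, with a median of −0.01, from −0.06 for the subunit gene *Morf4l2* to 0.16 for *Ing3*, which encodes a reader of histone methylation. In neither complex was a gene DE by edgeR, DESeq2 or limma voom, or with either block. Unadjusted edgeR *P* values were under 0.05 for 2 NCoR genes (1 lower, 1 higher) and 4 NuA4 genes, all higher. They were under 0.05 for 1272 of the 14962 genes tested. All MCH-treated wells lay above all vehicle-treated wells in 1 NCoR gene and 3 NuA4 genes, as in 3.07% of all genes tested, and below them in 0. The sign for *Morf4l2* turned to 0.04 when transcript length was taken into account.

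The genes with the profile most like that of *Npas4* over the 8 wells were taken as those with the smallest root mean square difference of log2 CPM after each gene's mean was removed. They were the AP-1 factor gene *Fos* (0.144), *A830005F24Rik* (0.160), the small GTPase gene *Rasl11a* (0.162), the serotonin receptor gene *Htr1b* (0.172) and *Cfap43* (0.177), which encodes a protein of motile cilia. The median over all genes was 0.519, and *Npas4* itself deviated from its own mean by 0.500. *Fos* had 54.6 to 70.4 CPM with vehicle and 31.9 to 36.9 CPM with MCH. All 5 had their MCH-treated wells below their vehicle-treated wells, as had 2.96% of all genes tested. Since the 5 were chosen for likeness to *Npas4*, this comes with the choice and is no separate result. *A830005F24Rik* had at most 0.697 CPM and *Htr1b* at most 2.61 CPM in any well, so their profiles carry counting error. For *Arnt* the closest were *Scrn3* (0.0254), *Atl1* (0.0380) and *Ercc4* (0.0383), with a median over all genes of 0.147. For *Arnt2* they were *Mrpl17* (0.0107), *Gstp1* (0.0122) and *Eif2b5* (0.0136), with a median of 0.126. For *Npas3* they were *Dcps* (0.0367), the sodium–calcium exchanger gene *Slc8a3* (0.0378) and *Doc2b* (0.0408), a calcium sensor of vesicle release, with a median of 0.194. These are likenesses over 8 wells that share treatment and side, and they are given as a description.

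**Figure D5:**
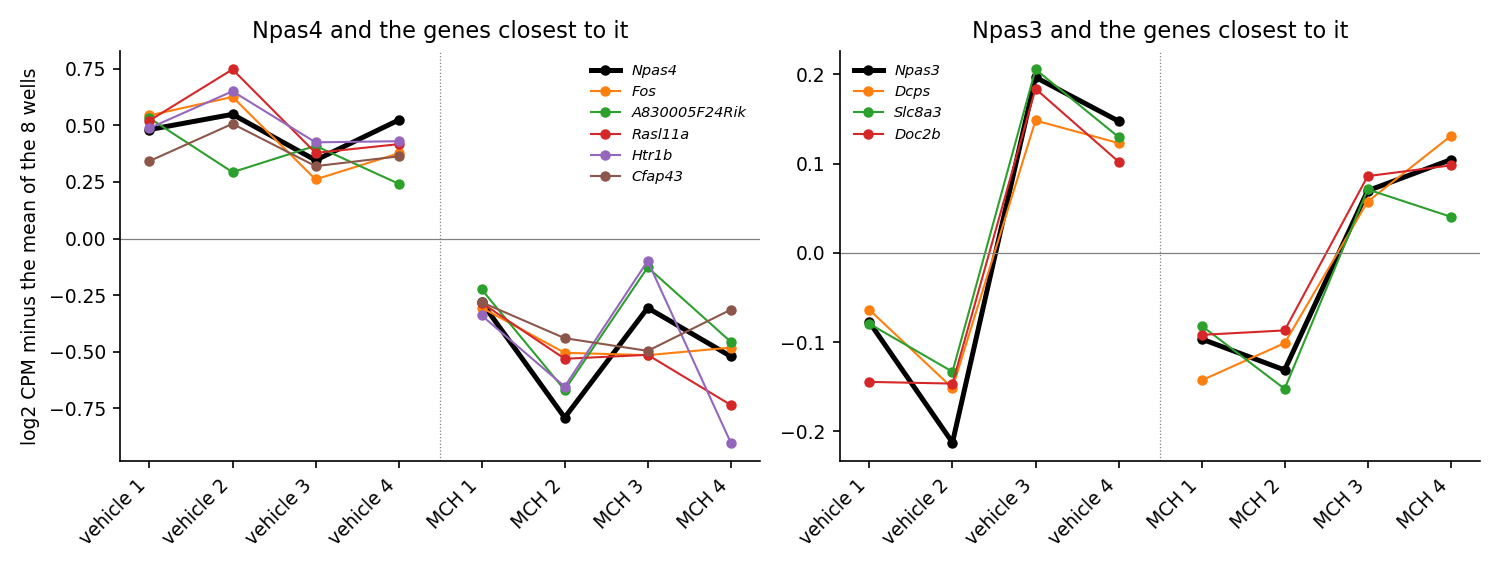
Log2 CPM minus the mean of the 8 wells, well by well, for *Npas4* with the 5 genes closest to it (left) and for *Npas3* with the 3 closest to it (right), with the lines broken between treatments. *Npas4* and its neighbours lie above 0 in the 4 vehicle-treated wells and below 0 in the 4 MCH-treated wells, whereas *Npas3* and its neighbours lie below 0 in replicates 1 and 2 and above 0 in replicates 3 and 4 of both treatments. The neighbours were chosen for these likenesses.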

How the data were processed

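Treatment and replicate number come from the sample labels. Dose, exposure time and the number of cultures come from the study's methods. A label tag names Alzheimer's disease, but the genotype label is wild type. Using Salmon through nf-core/rnaseq and the GRCm38 genome, the authors mapped and quantified the reads. The deposited gene table holds estimated counts, not normalized, of which 9.13% are not whole. They also deposited estimated counts and TPM per transcript and well, scaled by their Salmon run for length and depth. Identifiers were named from GENCODE vM21, which may not be the annotation used by the authors, and it gave names for 45143 of the 45706 genes.

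Counts were rounded and tested in R 4.3.3 with edgeR 4.0.16 (TMM, filterByExpr with a count minimum of 10 and a total minimum of 15, robust quasi-likelihood F test, no block), with Benjamini–Hochberg adjustment and a threshold of 0.05. The procedure was tested on simulated data. DESeq2 1.42.0, limma voom 3.58.1, other scalings, no filter, a transcript length offset, blocks and leaving out each well were the alternatives. The 95% intervals are those of the edgeR fit and include the spread between wells. Log2 CPM used a prior count of 2.

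Replicate numbers are shared by the treatments. Deviations from treatment means correlated at 0.445 to 0.545 in the 4 pairs of equal number. Wells of different numbers but 1 side correlated as much, at 0.475 to 0.521. The values thus show the sides and no closer pairing by number. The labels do not say what a number marks, so pairing by number is an assumption. The replicate block takes the number as a factor, and the batch block the side from the first principal component of these counts, so that fit uses the counts more than once.

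The genes, lists, markers and tests were chosen with earlier results of these data known. Named in the text are the 4 genes and their transcripts with a mean of at least 10 reads, each NPAS4 target, the DE genes of each other list or else its lowest and highest fold change, and the 5 profiles closest to *Npas4* and 3 to each other gene. *Ncoa1* and the inhibitory markers were named after their values were seen. Promoter windows are those of RefSeq on GRCm38.p6. None was found for *Nptx2* in the table used.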

Additional observations from a re-analysis of the deposited data

Results flagged for a closer look

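Of 38 groups of 4 wells examined, 3 had 1 well standing apart from the others by more than Dixon's 95% critical value for the gap over the range, where chance alone gives about 1 in 20. All 3 were transcripts of *Arnt*. For *Arnt-202* with vehicle, replicate 4 had 299 reads and the other wells 417 to 423 (gap over range 0.958). For *Arnt-202* with MCH, replicate 4 had 384 reads and the others 422 to 428 (0.862). For *Arnt-205* with MCH, replicate 1 had 18.1 reads and the other wells 0 (1.00). With the other wells tied at 0, any reads in the remaining well give 1.00. That value therefore does not measure how far the well stands apart. In these groups no well of the whole gene *Arnt* stood apart, and Salmon's division of shared reads among its transcripts moves with the first 2 results, since vehicle replicate 4 had the most *Arnt-205* reads (69.3) and MCH replicate 4 the most *Arnt-211* reads (54.5). The part of that division in these values was not tested.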

How the results depend on the processing

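*Npas4* stayed lower and DE under all 8 alternatives other than leaving out a well, with log2 fold changes of −0.94 to −0.93 and adjusted *P* values of 6.29e-13 (DESeq2) to 0.0462 (transcript length offset), 0.0176 with the replicate block and 0.00389 with the batch block. With 1 well left out its log2 fold change ranged from −1.002 to −0.84 and its adjusted *P* value, by edgeR with Benjamini–Hochberg adjustment, from 0.0184 to 0.0762, and the call was lost without vehicle replicate 1, 2 or 4 or MCH replicate 4. *Arnt*, *Arnt2* and *Npas3* were DE under no alternative. The log2 fold change of *Npas3* ranged from −0.10 to 0.0351 with 1 well left out, above 0 without vehicle replicate 3 (0.0351), vehicle replicate 4 (0.0145) or MCH replicate 2 (0.0092).

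The number of DE genes moved from 35 to 157 with DESeq2, 596 with the replicate block, 668 with the batch block and 7 with the transcript length offset, and to between 4 (without vehicle replicate 4) and 29 (without vehicle replicate 3) with 1 well left out. Without vehicle replicates 1 and 2 and MCH replicates 2, 3 and 4 it was 5, 9, 12, 10 and 7. For DE transcripts it was 0 to 1, with 1 without vehicle replicate 1, 3 or 4. The cause of these moves was not tested. In the paired analysis, permuting signs within pairs of equal replicate number, the ratios of *Npas4* to *Arnt2* (−0.89) and to *Arnt* (−1.03) had *P* = 0.125, the smallest value that exact test allows. With 1 well left out they ranged from −0.95 to −0.79 and from −1.13 to −0.88. The *Arnt-202* share ranged from −6.04 to 0.111 points, the latter without vehicle replicate 3. *Npas4*, *Arnt2* and *Npas3* have 1 transcript in the tables and gave no share. *Iqsec3* turned to −0.0012 with limma voom, −0.00102 with the replicate block, −0.00085 with the batch block, and −0.0251, −0.0276, −0.0585 and −0.0409 without vehicle replicates 3 and 4 and MCH replicates 1 and 2, and reached 0.0744 without MCH replicate 4. *Morf4l2* turned to 0.0417 with the length offset, which also moved *Mdm2* from −0.12 to −0.0093, *Tiparp* from −0.19 to −0.39, *Arnt* from 0.04 to 0.08 and *Arntl2* from 0.30 to 2.49, with no change of call. With 1 well left out, *Brinp1* ranged from −0.18 to −0.05 (nearest 0 without vehicle replicate 2), *Syt10* from −0.37 (without MCH replicate 1) to −0.03 (without MCH replicate 4), *Adm* from −0.58 (without MCH replicate 4) to −0.07 (without MCH replicate 2) and *Cyp1a1* from 0.15 (without vehicle replicate 3) to 0.69 (without vehicle replicate 2). In the same fits *Arntl2* fell to 0.12 (without MCH replicate 4), *Arnt* ranged from 0.0073 (without vehicle replicate 4) to 0.11 (without vehicle replicate 1), *Arntl* from −0.0755 (without vehicle replicate 3) to −0.0081 (without vehicle replicate 2) and *Morf4l2* from −0.0883 (without vehicle replicate 3) to −0.0201 (without MCH replicate 3). None of these was called with 1 well left out. Beside the calls named in the report, the replicate block changed no call of *Npas4*, *Arnt*, *Arnt2* or *Npas3*. *Npas4* rests on 419 to 1102 reads per well, whereas *Adm*, *Cyp1a1* and *Arntl2* rest on 5 to 36, and none of these 3 was called in any of the fits.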

Other observations

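Of the 13 other bHLH-PAS genes tested, 5 had wells that did not overlap between replicates 1 and 2 and replicates 3 and 4, a share near the 29.6% of all genes tested, and they are given as values only, named after these were seen. *Epas1*, which encodes HIF2A and is known from endothelium and astrocytes, had 19.4 ± 1.23 CPM in replicates 1 and 2 and 40.3 ± 2.37 CPM in replicates 3 and 4 (SD, n = 4 wells). *Npas2*, a clock factor, had 16.01 ± 0.928 and 20.8 ± 0.703 CPM. *Npas1*, known from interneurons, had 20.7 ± 1.14 and 13.4 ± 1.80 CPM, *Ahr* 18.9 ± 1.68 and 15.2 ± 1.33 CPM, and its repressor gene *Ahrr* 1.85 ± 0.380 and 1.09 ± 0.148 CPM. Over the same wells the 6 inhibitory neuron markers summed to 2608 to 2857 CPM in replicates 1 and 2 and 2115 to 2377 CPM in replicates 3 and 4. The part of these markers in the level of *Npas1* was not tested. The sides were read from these counts and carry no test. *Npas4* differed by 0.02 on the log2 scale between the sides, which overlapped.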
